A study of Homo sapiens with 4 samples.

Results

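Levels of 36 genes of homologous recombination, the Fanconi anaemia pathway, mismatch repair and their checkpoint kinases were followed in 2 human cancer cell lines. The genes were taken from a list of names that was chosen with earlier results of these data known. Each was read at the probe of that name with the highest mean signal over the arrays. All 36 were found among the 43317 gene names on the array, all under their current symbols, and all 36 were well above background on every array, by the mark that the scanner software sets.

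The study transfected HCT116 colorectal cancer cells and A549 lung cancer cells with miR-891b, a microRNA, or with NC1, a negative control, using the reagent Dharmafect1 in all 4 groups. Total RNA of each group (100 ng) was labelled with Cy3 and hybridised to an Agilent 1-colour expression array, with 1 array per group, so no difference within a line has a replicate check. Dose and time after transfection are not given in the sources used here, and RNA is of whole cultures, in which fewer cells of a kind and less RNA per cell cannot be told apart. Levels are log2 signal minus the 75th percentile of the array, so a level of 0 is the brightness at that percentile, and a level is compared only with the same probe on another array. Both arrays of a line lay on 1 slide, so line and slide cannot be told apart, while each transfection was set against its control on 1 slide.

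Homologous recombination repairs a broken chromosome by copying the sister DNA: the break is cut back to single strands, BRCA1 and BRCA2 with their partners prepare these strands for pairing, and the joined DNAs are later separated by dissolution or by nucleases. The Fanconi pathway handles crosslinks between DNA strands: a core complex, with the E2 enzyme UBE2T, attaches ubiquitin to FANCD2 and FANCI, which then call in nucleases and recombination. Mismatch repair finds copying errors through protein pairs that include MSH3 or MSH6 and removes them with PMS2 and EXO1 among others, and the kinases ATM, ATR, CHEK1 and CHEK2 signal damage to the cell cycle. Many of these genes are known to be expressed most in S and G2 phase. HCT116 is known as a line with deficient mismatch repair.

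The transfected microRNA and the promoter stretches that hold an E2F motif, a letter pattern bound by a family of cell cycle transcription factors, are shown because the motif is known from promoters of S-phase genes. The mature miR-891b sequence (RefSeq, GRCh38.p14, chrX:146001100-146001121, minus strand) is printed with its seed, bases 2 to 8, in capitals.
miR-891b: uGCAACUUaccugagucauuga
The letters complementary to this seed, AAGTTGC, occurred in 0 of the 58 array probes of the members and in 229 of all 58201 gene probes (0.393%). This says only that the probe sequences lack these letters, since probes cover a small stretch of each transcript. RefSeq promoters of 300 bases were matched for 33 of the 36 members, without RAD54B, FANCI and RMI2. In the 6 stretches below (GRCh38.p14, 5′ to 3′ on the strand of the gene) capitals mark matches to TTTCGCGC, TTTGGCGC or TTTCCCGC on either strand.
XRCC2 (chr7:152676113-152676182, minus strand): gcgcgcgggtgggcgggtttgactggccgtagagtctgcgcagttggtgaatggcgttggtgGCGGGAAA
FANCC (chr9:95317717-95317786, minus strand): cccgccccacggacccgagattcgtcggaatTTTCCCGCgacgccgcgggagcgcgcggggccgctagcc
FANCD2 (chr3:10026373-10026442, plus strand): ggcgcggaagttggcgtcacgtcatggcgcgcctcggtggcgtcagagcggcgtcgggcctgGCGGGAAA
EXO1 (chr1:241848146-241848215, plus strand): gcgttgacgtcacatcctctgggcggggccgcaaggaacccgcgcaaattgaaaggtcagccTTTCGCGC
MSH3 (chr5:80654518-80654587, plus strand): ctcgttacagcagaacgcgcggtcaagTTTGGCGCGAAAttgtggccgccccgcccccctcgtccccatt
MSH6 (chr2:47783086-47783155, plus strand): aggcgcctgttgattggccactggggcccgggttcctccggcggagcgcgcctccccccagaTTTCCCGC
The stretch of MSH3 holds 2 matches that overlap, and a further match of FANCC lies outside the stretch shown. E2F letters were present in 6 of 33 member promoters (18.2%) and in 763 of 27305 promoters of all genes (2.79%). Among members at least 2-fold lower in A549 with miR-891b the motif was present in 3 of 17 promoters (17.6%), and among the other members in 3 of 16 (18.8%), so its share was about the same in both. The CCAAT box (CCAAT) was found in 17 of 33 member promoters (51.5%) against 35.7% of all promoters. The cell cycle homology letters TTTGAA or TTCGAA were found in 4 of 33 (12.1%) against 16.6%. In 20 promoters of the proliferation genes described below, E2F letters were found in 10 (50%) and the CCAAT box in 15 (75%). The cell cycle homology letters were found in 6 of those 20 (30%). These matches describe letters in the window, not binding.

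Across the 4 arrays 44.7% to 50.3% of gene probes were well above background and no gene spot was saturated. Areas of stray signal, where at least 10% of nearby otherwise dim spots were well above background, held 10.5% of gene spots on the HCT116 miR-891b array and 0.0213% to 2.20% on the others. Of the line markers, all 5 measured A549 genes were higher in A549 on the NC1 arrays and all 4 HCT116 genes were lower, but AKR1B10, an A549 marker, was higher by 4.47 on the HCT116 miR-891b array than on HCT116 NC1. AKR1C1 and ALDH1A1, also A549 markers, were not well above background on that HCT116 miR-891b array. Of 6 fibroblast markers, listed because the growth protocol names fibroblast lines, 3 were measured in A549 and 2 in HCT116, with COL1A2, COL3A1 and DCN not well above background on any array. In A549, LUM, a fibroblast marker, stood at 1.03 on NC1 and 3.17 on miR-891b (difference 2.14), while COL1A1 and PDGFRB differed by -0.59 and -0.04. In the same A549 pair the HCT116 markers CLDN3, EPCAM, CDX2 and CLDN7 differed by 1.03, 0.74, -0.36 and -0.96. The 6 A549 markers differed by -0.19 to -1.64 there, with KRT81 (-1.64) and ALDH3A1 (-1.17) past 2-fold. The part of any of these in the members' differences was not tested. PSAT1, the serine synthesis enzyme in the title of the study, was lower with miR-891b by a log2 difference of -1.58 in A549 and -0.81 in HCT116.

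In A549 cells, most recombination and Fanconi genes were lower on the miR-891b array than on the NC1 array, and none was 2-fold higher. Of the 36 members, 19 (52.8%) were at least 2-fold lower, against a background of 5.57% of the 21334 genes measured in A549, and 0 were at least 2-fold higher, against 4.01%. The differences were below 0 for 35 members, with a median of -1.09 against -0.06 over all genes. Because the list was chosen with earlier results of these data known, these values describe it and are not a test. At 1.5-fold 24 members were lower and 0 higher in A549, against 15.3% and 11.1% of all genes. In HCT116 cells 0 of 36 members were at least 2-fold lower and 0 at least 2-fold higher, against 0.843% and 1.16% of 19105 genes, and the median difference was 0.11 against -0.04. The A549 differences carried a spot-level error of 0.20 to 0.24 (log2, from the error model of the scanner software). Probes printed at 5 or more spots gave a median SD of the difference between arrays of 0.07 in A549 and 0.06 in HCT116. Both errors cover the reading of spots on these arrays only.

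**Figure D1:**
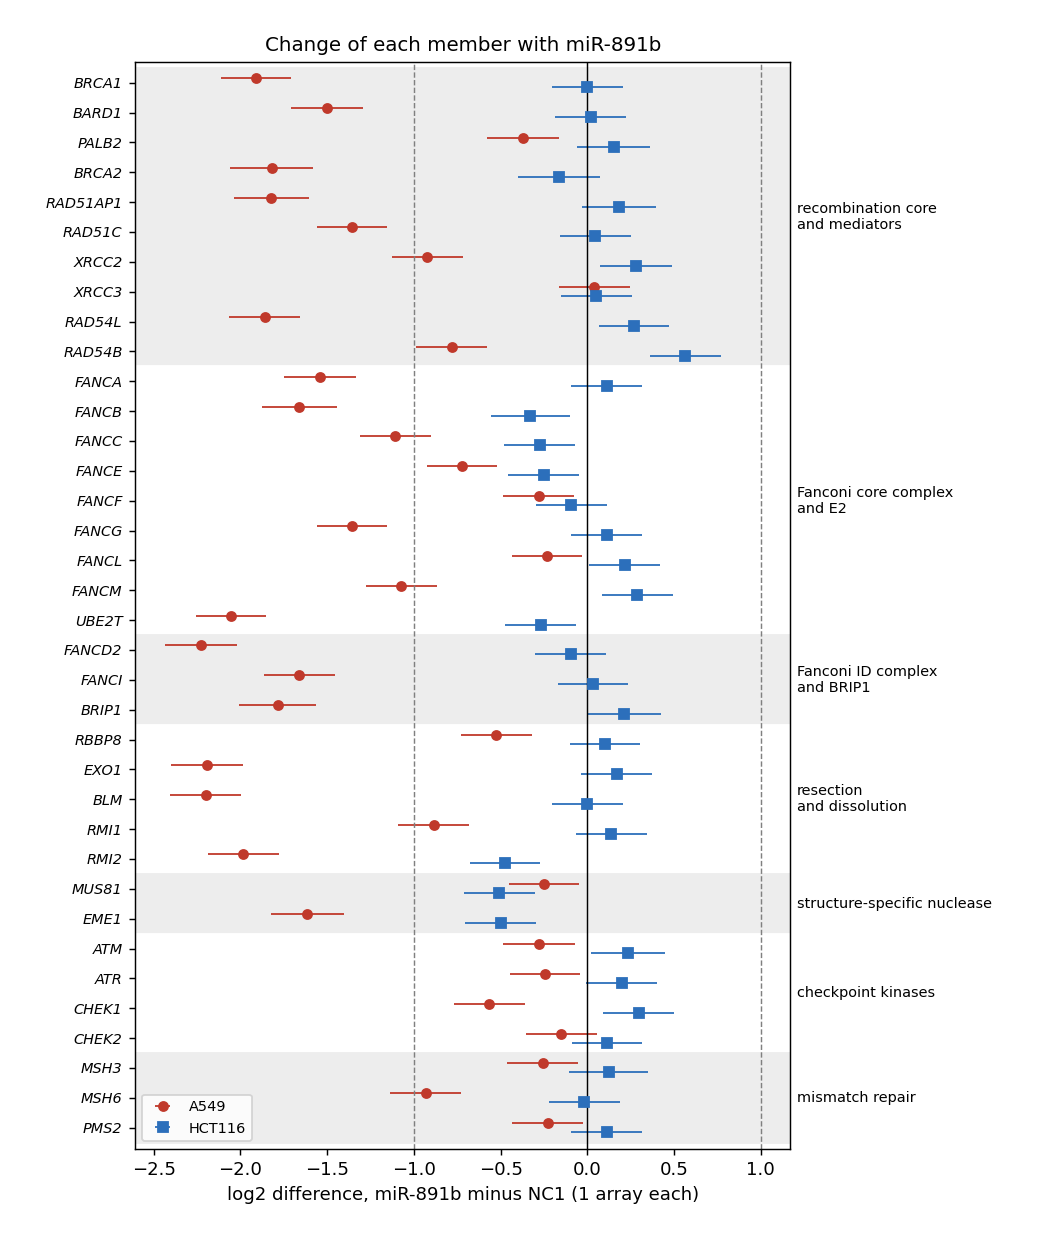
Log2 difference between miR-891b and NC1 (x axis) for each of the 36 genes, grouped by role, in A549 (red circles) and HCT116 (blue squares), 1 array per group; bars are the spot-level error of the scanner software and dashed lines mark 2-fold. In A549 19 genes lie beyond 2-fold lower, while in HCT116 all 36 lie within 2-fold.

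**Figure D2:**
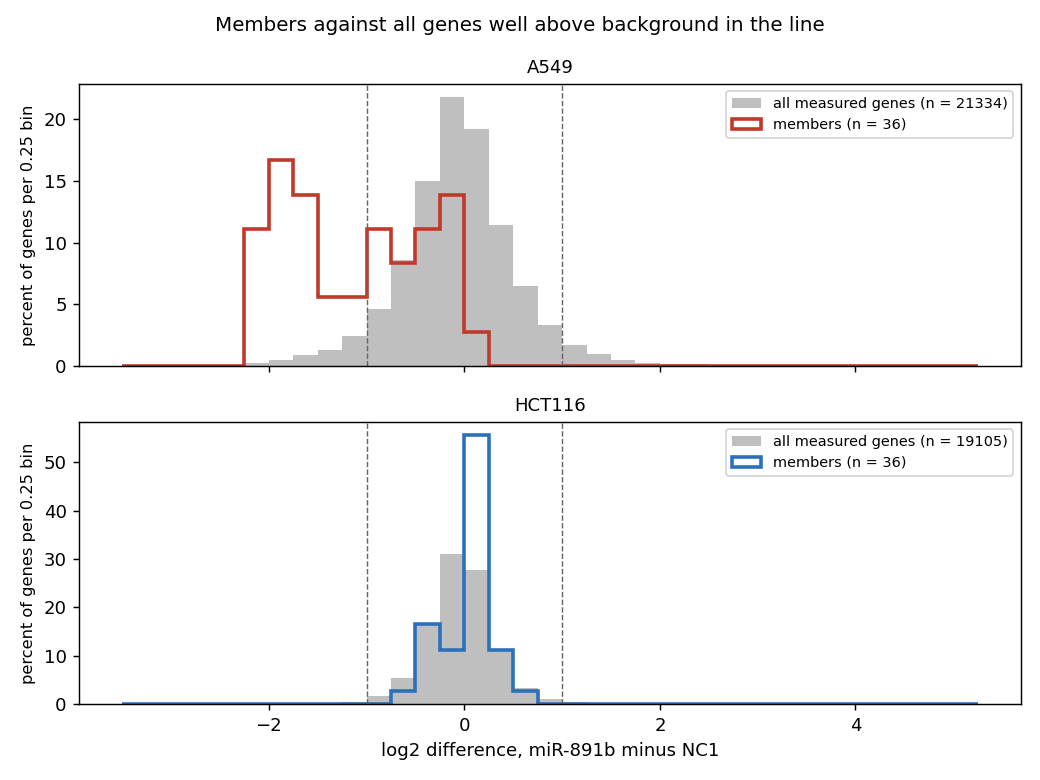
Percent of genes per bin of the log2 difference between miR-891b and NC1 for all measured genes (grey) and the 36 members (outline), in A549 (upper panel) and HCT116 (lower panel), with dashed lines at 2-fold. The members' median is -1.09 in A549, against -0.06 over all genes, and 0.11 in HCT116, against -0.04.

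The same A549 array pair had lower levels of genes used as markers of proliferating cells. Of 27 such genes, among them MKI67 (difference -1.58), CCNB1 (-1.76), E2F1 (-2.09) and MCM2 (-2.40), 26 were at least 2-fold lower in A549, with a median of -1.69, and the remaining one, CCNE1, differed by -0.37. In HCT116 0 of the 27 were past 2-fold in either direction, with a median of -0.05. Their part in the members' differences was not tested.

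Among the recombination core genes and their mediators, 6 of 10 were at least 2-fold lower in A549 (median -1.43). Levels are given here and below array by array: the HCT116 arrays come first and the A549 arrays second, each with NC1 before miR-891b. BRCA1, which with BARD1 forms the ubiquitin ligase that steers breaks into recombination, stood at 1.59, 1.59, 2.46 and 0.55 (probe at hg19 chr17:41196422-41196481). The highest and the lowest of these levels were both in A549, a difference of -1.91 or 3.76-fold. Its 10 spots ran from 2.32 to 2.61 on A549 NC1 and from 0.47 to 0.66 on A549 miR-891b without overlap, whereas the spots of the HCT116 arrays, 1.35 to 1.69 and 1.43 to 1.69, overlapped almost fully. BARD1 stood at 0.60, 0.62, 1.16 and -0.34, a difference of -1.50 in A549. BRCA2, which acts on the single strands before pairing, stood at -1.20, -1.37, -0.55 and -2.37, a difference of -1.82. For both genes the A549 NC1 array was the highest of the 4 and the A549 miR-891b array the lowest. PALB2, the bridge between BRCA1 and BRCA2, differed far less, at -0.18, -0.02, 0.12 and -0.25, or -0.37 in A549.

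RAD51AP1, which stimulates strand pairing, stood at -0.41, -0.23, 0.02 and -1.80, a difference of -1.82 in A549. RAD54L, a motor protein that works on the joined DNAs, stood at 3.53, 3.80, 2.23 and 0.37, a difference of -1.86. In RAD54L both A549 arrays lay below both HCT116 arrays, and the A549 miR-891b array was the lowest by far. RAD51C, which acts with XRCC3 in strand pairing, stood at 4.33, 4.38, 3.78 and 2.42, a difference of -1.36, with its spot in a stray-signal area of the HCT116 miR-891b array only. XRCC2, of the same family, was lower by less than 2-fold in A549 (-0.92) and 0.28 higher in HCT116. RAD54B, a relative of RAD54L, differed by -0.78 in A549 and 0.56 in HCT116, the highest HCT116 value among the members, where its spot lay in an area of stray signal on the miR-891b array. The second RAD54B probe gave -0.09 and 0.30.

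XRCC3, the partner of RAD51C, depended on the probe. The probe with the highest signal (hg19 chr14:104170734-104170793) stood at 8.74, 8.79, 8.71 and 8.75 and gave 0.04 in A549, so all 4 arrays read alike. A second XRCC3 probe (chr14:104163955-104164014) stood at 3.51, 3.27, 3.61 and 1.76, a difference of -1.85 in A549 and -0.24 in HCT116. Which transcripts the brighter probe reads was not tested.

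In the Fanconi core complex with its E2 enzyme, 6 of 9 members were at least 2-fold lower in A549 (median -1.11). UBE2T, the E2 enzyme that charges the ubiquitin for FANCD2, stood at 6.04, 5.78, 6.01 and 3.96, a difference of -2.05 or 4.15-fold in A549. Its level was nearly equal in the other 3 groups and low only on the A549 miR-891b array. FANCA stood at 2.20, 2.32, 0.80 and -0.74, a difference of -1.54, with -1.68 and -0.92 at its other probes, the last under 2-fold. Its spots ran from 0.67 to 0.86 on A549 NC1 and from -0.92 to -0.55 on A549 miR-891b, and neither range overlapped the spots of HCT116, which lay from 2.12 to 2.42. FANCB stood at -0.99, -1.32, -0.14 and -1.80, a difference of -1.66 in A549 and -0.33 in HCT116.

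FANCG stood at 4.47, 4.58, 4.29 and 2.93, a difference of -1.36, with its spot in a stray-signal area of the A549 miR-891b array. FANCM, the helicase that anchors the core complex on DNA, stood at 1.87, 2.16, 2.52 and 1.45, a difference of -1.07 in A549 and 0.29 in HCT116. FANCC stood at 1.93, 1.66, 1.88 and 0.78, a difference of -1.11, but its second probe gave -0.25. The remaining core members stayed within 2-fold in A549: FANCE, a subunit that contacts FANCD2, differed by -0.72, FANCF, an adaptor subunit, by -0.28 (0.15 at its second probe) and FANCL, the ubiquitin ligase of the complex, by -0.23. The ligase and its E2 enzyme therefore differed in size on the same arrays, at -0.23 and -2.05, a contrast for which no test was available.

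The 3 members FANCD2, FANCI and BRIP1, which act downstream of the core complex, were all at least 2-fold lower in A549. FANCD2, the ubiquitinated clamp, stood at 1.33, 1.24, 1.36 and -0.87, a difference of -2.23 or 4.68-fold, the lowest value among the 36 members. Its other probes gave -1.91 and -2.27, the latter not well above background on the A549 miR-891b array. FANCI, its partner, stood at 3.73, 3.77, 4.15 and 2.49, a difference of -1.66. BRIP1, the helicase that binds BRCA1, stood at -0.51, -0.30, -0.34 and -2.13, a difference of -1.79. For all 3 the A549 miR-891b array was the lowest of the 4 by over 2-fold, and the HCT116 differences were -0.10, 0.03 and 0.21.

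Of the 5 members that cut back break ends or dissolve joined DNAs, 3 were at least 2-fold lower in A549 (median -1.98). EXO1, the exonuclease of resection and of mismatch repair, stood at 1.89, 2.06, 1.99 and -0.20, a difference of -2.19 or 4.57-fold. Its 10 spots lay between 1.80 and 2.14 on the first 3 arrays and between -0.29 and -0.07 on A549 miR-891b. BLM, the helicase of the dissolving complex, stood at 2.84, 2.84, 2.97 and 0.77, a difference of -2.20, with its spot in a stray-signal area of the HCT116 miR-891b array only. RMI2, a small subunit of that complex, stood at 3.39, 2.91, 4.67 and 2.69, a difference of -1.98 in A549 and -0.47 in HCT116.

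In RMI2 the A549 NC1 array stood above the other 3. RMI1, the partner of RMI2, was lower by less than 2-fold (-0.88), with spots from 2.41 to 2.64 on A549 NC1 and from 1.57 to 1.72 on A549 miR-891b that did not overlap. RBBP8, also called CtIP, which starts resection, differed by -0.52. Of the nuclease pair that cuts joined DNAs, the regulatory subunit EME1 stood at 1.21, 0.71, 0.71 and -0.90, a difference of -1.61 in A549 and -0.50 in HCT116. Its catalytic partner MUS81 stood at 3.35, 2.84, 2.73 and 2.48, a difference of -0.25 in A549 and -0.51 in HCT116. EME1 and MUS81 were thus lower with miR-891b in both lines, but MUS81 was within 2-fold in both.

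**Figure D3:**
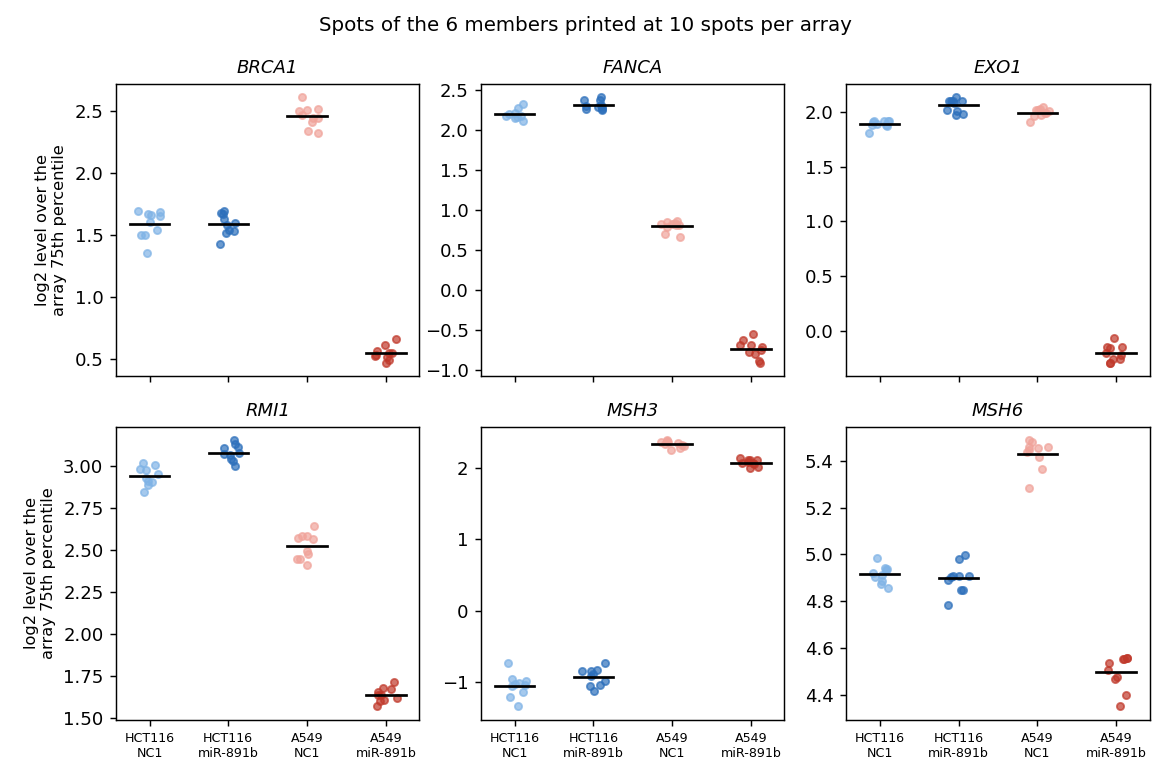
Log2 level over the array's 75th percentile (y axis) of each spot of the 6 genes printed at 10 spots per array, with bars at the mean of each array; spots are repeats on 1 array, not replicates of a group, and 1 outlier spot of FANCA is left out. Spots of A549 NC1 and A549 miR-891b do not overlap for any of the 6 genes, and the separation is widest for EXO1 (difference -2.19) and BRCA1 (-1.91).

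None of the 4 checkpoint kinases was past 2-fold in A549 (median -0.26). CHEK1, the kinase activated by ATR, stood at 2.33, 2.63, 1.77 and 1.21, a difference of -0.56. ATM, which answers breaks, stood at -0.67, -0.43, -0.49 and -0.76, a difference of -0.28, with -0.88 and 0.02 at its other probes. The ATM probes thus lay on both sides of 0 in A549. ATR, which answers stalled forks, stood at 2.94, 3.14, 3.27 and 3.02, a difference of -0.24. CHEK2, the kinase activated by ATM, stood at 1.92, 2.03, 0.88 and 0.73, a difference of -0.15, with its other probes between -0.30 and -0.37. All 4 kinases were slightly higher with miR-891b in HCT116, by 0.11 to 0.30.

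None of the 3 mismatch repair members was past 2-fold in A549 either (median -0.26). MSH6, which finds single mismatches, stood at 4.91, 4.90, 5.43 and 4.496, a difference of -0.93. Its 10 spots ran from 5.28 to 5.49 on A549 NC1 and from 4.35 to 4.56 on A549 miR-891b, so the arrays separated although the difference stayed under 2-fold. A second measured MSH6 probe, assigned to another transcript, gave 0.03. PMS2, which nicks the strand to be repaired, stood at 2.63, 2.74, 3.12 and 2.89, a difference of -0.23, with -0.20 to -0.67 at its other probes. MSH3, which finds small loops, stood at -1.05, -0.92, 2.33 and 2.07, a difference of -0.26, with 0.10 at its second probe. For MSH3 the arrays split by line, not by transfection. PMS2 and CHEK2 have near-identical copies elsewhere in the genome, so their probes may read more than 1 gene.

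Set side by side, 24 of 36 members (66.7%) differed below 0 in A549 and above 0 in HCT116, by any size. The share was 23.3% of the 18064 genes measured on all arrays. Most of these HCT116 differences of members were smaller than their spot-level error. The A549 difference minus the HCT116 difference had a median of -1.27 over the members, against -0.05 over the same 18064 genes. It was past 2-fold below for 21 of 36 members (58.3%), against 6.27% of all genes. With 1 array per group this contrast has no test. In HCT116 24 members (66.7%) differed by under 0.25, a share near the 58.8% of all genes, and the lowest were MUS81 (-0.51), EME1 (-0.50) and RMI2 (-0.47).

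Over both lines together, the miR-891b effect was fitted with limma, with the line as a term and 1 residual degree of freedom, and p-values were adjusted over all 22711 genes. By this limma fit 0 of 36 members and 0 of 22711 genes (0.0%) passed an adjusted p of 0.05. The smallest adjusted p of a member by limma was 0.793. At an unadjusted p under 0.05 limma listed 2 of 36 members, a share near that of all genes (1214 of 22711). These members were EME1 (-1.06, SE 0.357) and RMI2 (-1.23, SE 0.435). Both had values below 0 in A549 and in HCT116. These p-values measure the spread between 4 arrays, and the fit takes a difference between the lines in response as spread.

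Between the control cultures, most members, like most genes, lay within 2-fold between the lines. Of 36, 5 (13.9%) were at least 2-fold lower in A549 than in HCT116 on the NC1 arrays, against 16.2% of 19217 genes. Another 3 (8.33%) were at least 2-fold higher, against 11.1%, so both shares were near those of all genes. At 1.5-fold 7 were higher, against 20.1%. With the median in place of the 75th percentile as the scale, the split was 3 lower and 3 higher, against 14.4% and 12.4%. On the miR-891b arrays the same count was 20 lower and 1 higher, against 20.7% and 11.4% of 18576 genes. There were 19 members (52.8%), BRCA1 and FANCI among them, that stood above HCT116 on the A549 NC1 array and below HCT116 on the A549 miR-891b array, against 11.1% of 18064 genes. The NC1 and miR-891b arrays give the line difference from separate arrays, but the latter also carries the A549 differences described above.

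**Figure D4:**
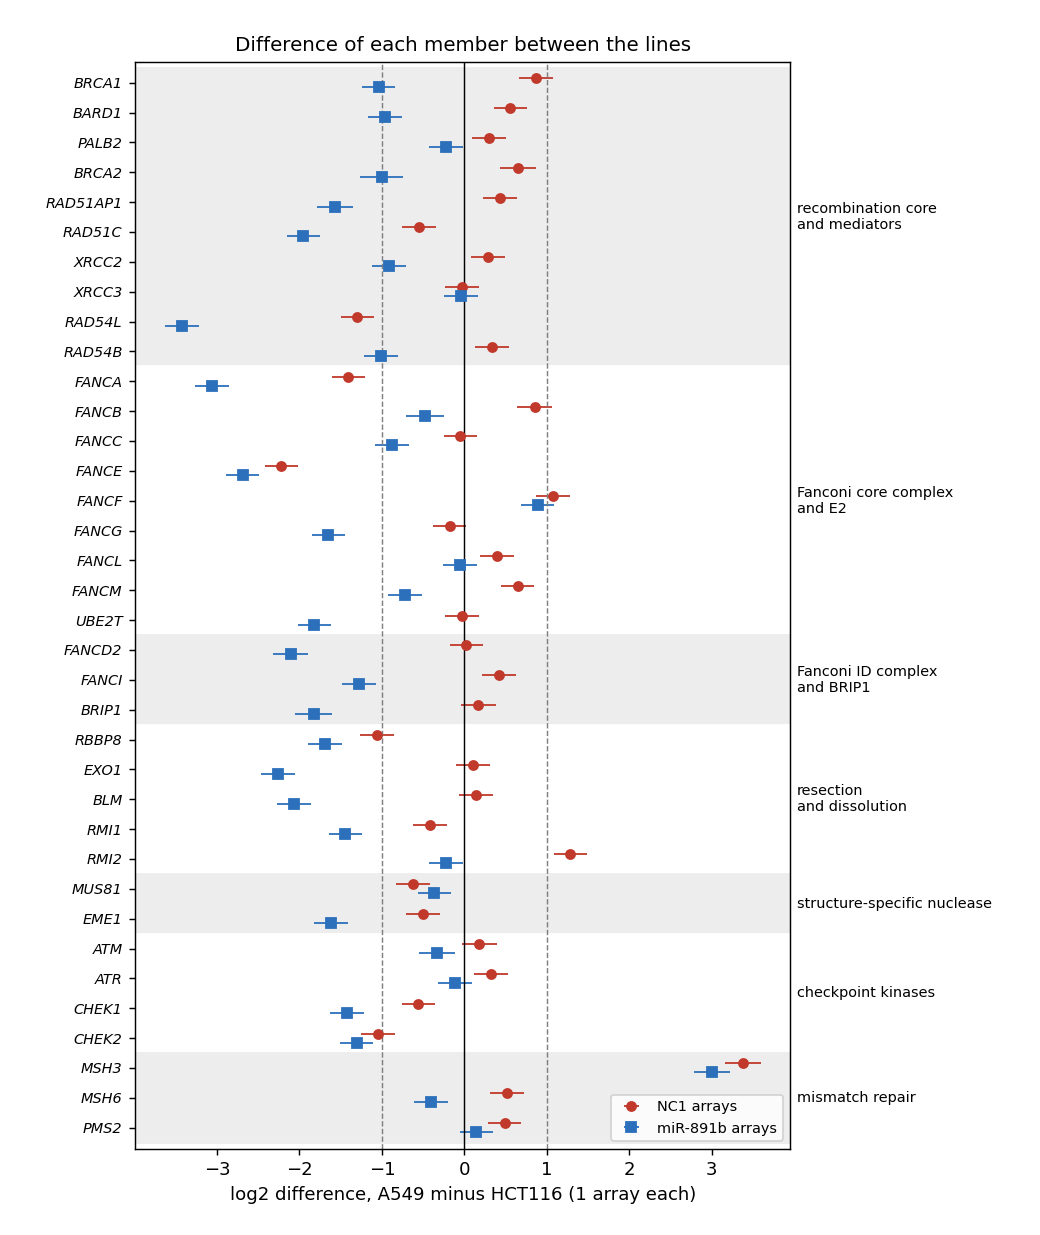
Log2 difference between A549 and HCT116 (x axis) for each of the 36 genes on the NC1 arrays (red circles) and on the miR-891b arrays (blue squares), 1 array per group; bars are the spot-level error of the scanner software and dashed lines mark 2-fold. MSH3 stands at 3.38 and 2.997, and 20 genes lie beyond 2-fold lower on the miR-891b arrays against 5 on the NC1 arrays.

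The widest line difference was that of MSH3, higher in A549 by 3.38 (10.4-fold) on the NC1 arrays and 2.997 on the miR-891b arrays. Its 10 spots lay between -1.34 and -0.73 on the HCT116 arrays and between 1.99 and 2.38 on the A549 arrays. By limma over both treatments the MSH3 difference was 3.19 (SE 0.249, adjusted p = 0.00284). These values come from the probe at hg19 chr5:80169024-80169083. A second MSH3 probe, at chr5:79950616-79950675, gave 0.86 on the NC1 arrays and 1.11 on the miR-891b arrays, so the size but not the direction depended on the probe.

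FANCE, the Fanconi subunit, stood at 4.69, 4.44, 2.47 and 1.75, lower in A549 on both array pairs. By limma its difference was -2.45 (SE 0.258, adjusted p = 0.00584). FANCA and RAD54L were also lower in A549, by limma at -2.23 (adjusted p = 0.0312) and -2.36 (adjusted p = 0.0438). On the NC1 arrays alone they differed by -1.41 and -1.30, and the other FANCA probes gave -1.06 and 0.03. RBBP8 stood at 3.84, 3.94, 2.78 and 2.25, with -1.38 by limma (adjusted p = 0.0289), and CHEK2 gave -1.18 (adjusted p = 0.0298). On the NC1 arrays the chosen CHEK2 probe gave -1.04 and its other probes -0.75 to -0.77, under 2-fold. FANCF stood at 2.05, 1.96, 3.13 and 2.85, higher by 0.98 by limma (adjusted p = 0.0432). Its spot, like that of CHEK2, lay in a stray-signal area of the HCT116 miR-891b array. A second FANCF probe gave 0.65 on the NC1 arrays, against 1.08 at the chosen probe.

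In all, limma called 7 of 36 members between the lines (19.4%), against 31.9% of the 22711 genes, 15.5% higher and 16.4% lower. MSH3, FANCE, FANCA, RAD54L, RBBP8 and CHEK2 were past 2-fold in the same direction on both array pairs. The share of all genes with this pattern was not computed. RMI2 was 2-fold higher in A549 on the NC1 arrays (1.29) but not on the miR-891b arrays (-0.22). FANCD2, at 0.03 on the NC1 arrays, gave -1.45 and 0.97 at its other probes, so its line difference depended on the probe. ATM, at 0.18 there, gave 1.48 and 0.51 at its other probes.

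Other genes of the same pathways were taken from lists by function. Among other homologous recombination genes 6 of 38 (15.8%) were at least 2-fold lower in A549 (median -0.48), against 5.57% of all genes. Among these were RPA3 (-1.35), MCM8 (-1.31), RECQL4 (-1.25), FIGNL1 (-1.24) and DNA2 (-1.18). Of the other Fanconi genes 4 of 17 (23.5%) were at least 2-fold lower (median -0.54). Under the array's names these were C19orf40 (-1.78), UHRF1 (-1.78), APITD1 (-1.70) and STRA13 (-1.09). In HCT116 UHRF1 differed by -0.14.

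Among other mismatch repair genes 8 of 18 (44.4%) were at least 2-fold lower in A549 (median -0.68). Those named here are HMGB1 (-2.45), the clamp loaders RFC3 (-1.84), RFC5 (-1.60) and RFC4 (-1.16), the sliding clamp PCNA (-1.40) and the ligase LIG1 (-1.20), all except HMGB1 known as parts of DNA replication as well. The members MSH3, MSH6 and PMS2 stayed within 2-fold in A549, while PCNA and the 3 clamp loader genes named were past it.

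Of the other checkpoint genes 6 of 21 (28.6%) were at least 2-fold lower in A549. They were CDC25C (-2.18), CLSPN (-1.98), CDC25A (-1.44), H2AFX (-1.34), WRAP53 (-1.16) and TIMELESS (-1.07). Lists of other repair routes held smaller shares than the members, but each was above the 5.57% of all genes. End joining had 2 of 16 (12.5%), XRCC4 (-1.99) and POLQ (-1.43). Base excision repair had 2 of 20 (10%), FEN1 (-1.39) and NEIL3 (-1.03), and nucleotide excision repair had 2 of 23 (8.70%), GTF2H1 (-1.13) and DDB2 (-1.10). None of these 7 lists had a gene at least 2-fold higher in A549 or past 2-fold in either direction in HCT116, where XRCC4 came nearest at 0.95.

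**Figure D5:**
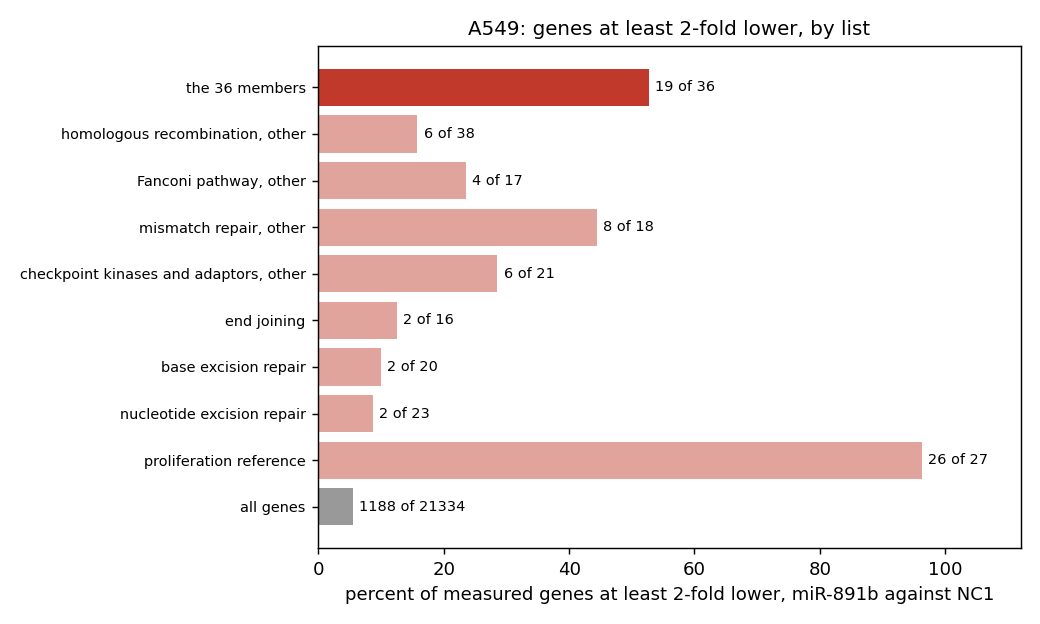
Percent of measured genes at least 2-fold lower in A549 with miR-891b against NC1 (x axis, from 0) for the 36 members, 7 lists of other repair and checkpoint genes, the proliferation reference and all genes; numbers are genes lower of genes measured. The members stand at 19 of 36, between the repair lists (at most 8 of 18) and the proliferation reference (26 of 27), and all genes at 5.57%.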

How the data were processed

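Scans were quantified with Agilent Feature Extraction 11.5.1.1, per the submitters' processing notes and the file headers, with background subtraction and spatial detrending within an array. The scanner files as deposited give linear intensity, not scaled between arrays, and probe coordinates are on hg19, per the file headers. The authors' deposited value table holds log2 values whose making is not given in the sources used here. They equalled the log2 processed signal minus the 75th percentile to within a median of 0.0069 per array, and were used as an alternative.

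Samples were grouped by title. Outlier spots were left out, repeated spots were averaged as log2 processed signal, and each array's 75th percentile over gene probes was then taken off. A gene was read at its probe with the highest mean. It was measured where well above background on both arrays compared, and was called at 2-fold. The additive model (limma 3.58.1, R 4.3.3; lmFit, eBayes, Benjamini-Hochberg) used genes well above background on at least 2 of 4 arrays. The model was also run on data simulated from its own fit, with no difference between the lines in response. That run therefore does not cover data with such a difference. Other values were computed in Python 3.11.15. The number of arrays limits the precision.

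The members and lists were chosen with earlier results of these data known. Values on every array were given for members at least 2-fold different in a line or between the NC1 arrays of the lines, and for mismatch repair and checkpoint members. From other lists up to 6 genes with the largest size were named, and some genes of these lists are not reported here. Proliferation genes and markers are given as examples. Probes were not placed in exons. Alternatives were other scalings, normexp background correction with an offset of 50, the authors' values, no dim filter, the mean over probes, leaving out areas of stray signal, a 1.5-fold threshold and an intensity trend in limma.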

Additional observations from a re-analysis of the deposited data

Results flagged for a closer look

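For 4 members the difference with miR-891b ran in opposite directions in the lines, with the A549 size at 1.5-fold or more and the HCT116 size at 0.234 or more, which is 2 times the 95th percentile of the SD of repeated spots. The A549 difference minus the HCT116 difference was -2.13 for RAD54L (-1.86 and 0.27) and -1.36 for FANCM (-1.07 and 0.29). It was -1.35 for RAD54B (-0.78 and 0.56), whose spot lay in a stray-signal area of the HCT116 miR-891b array, and -1.20 for XRCC2 (-0.92 and 0.28). These differences were not tested, because each group has 1 array, and the share of all genes with this pattern was not computed. The spot-level error of the HCT116 difference was 0.20 for RAD54L and FANCM and 0.21 for XRCC2, little below the differences themselves. Negative control spots, which carry no human gene sequence, were well above background at 11 of 308 spots on the HCT116 miR-891b array and at 2 of 308 on the A549 miR-891b array, against 0 on both NC1 arrays.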

How the results depend on the processing

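The count of 19 members at least 2-fold lower in A549 was 10 with normexp and quantile normalization, whose offset compresses dim signals by construction. The share of all genes lower fell as well, from 5.57% to 1.96% (419 of 21334). The member count was 16 to 19 under the other scalings, filters and probe rules and 24 at 1.5-fold, while 0 were higher under each. Of these, the 16 of 30 without areas of stray signal stood against 5.65% of all genes. The 19 with no dim filter stood against 7.11%, and the 24 at 1.5-fold against 15.3%. With normexp the A549 median was -0.67 and the median of the A549 difference minus the HCT116 difference -0.71. With the mean over probes the A549 median was -0.998 and the HCT116 median 0.046. The median of the A549 difference minus the HCT116 difference was then -1.16. Without areas of stray signal, which left 30 members, the last value was -1.16 too. The 5 members lower in A549 than in HCT116 on the NC1 arrays became 3 with median scaling, 3 with normexp, 3 with the mean over probes and 20 on the miR-891b arrays. Over all genes the shares lower were 14.4%, 7.43%, 16.0% and 20.7%, in the same order. The 3 higher became 7 at 1.5-fold and 1 on the miR-891b arrays, against 20.1% and 11.4% of all genes. RBBP8 (-0.98 with median scaling) and CHEK2 (-0.96) lay near 2-fold, and their calls moved with the scale. Over all genes, median scaling moved the median line difference on the miR-891b arrays from -0.19 to -0.08. By limma the members called between the lines numbered 5 to 9 over the alternatives, against 21.7% to 36.9% of all genes. For miR-891b limma called 0 members under each, against at most 0.0139% of all genes. Among the values called, only the line difference of RMI2 changed sign, from 1.29 on the NC1 arrays to -0.22 on the miR-891b arrays. The limma fit pairs each transfection with its control by line. The labels give no replicate numbers, so no other pairing was fitted, and with 1 array per group none could be left out. Dim members are limited by signal over background.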
